A study of Mus musculus with 14 samples.

Results

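The genes described here encode the subunits of the proteasome and the proteins that activate it or help to assemble its base. They were selected by name, as the probes for genes whose symbol begins with *Psma*, *Psmb*, *Psmc*, *Psmd* or *Psme*, and no measured value entered the selection. The rule found 64 of the 41174 gene probes on the array, for 43 gene names, of which 26 have 1 probe and 17 have several. All of the 64 probes matched a mouse RefSeq gene.

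Single blastocysts at embryonic day 4.0 were profiled on 1-color arrays after 2 rounds of linear RNA amplification. The 14 embryos comprised 8 cumulus cell-derived clones, of which 4 came from cell fusion and 4 from nuclear injection, together with 6 IVF-derived controls, 3 of each sex. All were cultured in KSOM. The clones are labelled female, like their cumulus cell donors. The mice had a BDF1 background, the first-generation cross of C57BL/6N females with DBA/2 males, and the methods name adult heterozygous *Xist* knockout females as cumulus cell donors and BDF1 females as the source of recipient oocytes. These methods describe postimplantation embryos, and that the blastocysts had the same donors is not stated. The labels call the IVF-derived controls sex- and genotype-matched, and which *Xist* allele a clone expressed is not given in the sources used here. Each value comes from a whole blastocyst, so that fewer cells of a type and less RNA per cell cannot be told apart.

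The proteasome is the large protease that degrades proteins tagged with ubiquitin in the cytoplasm and nucleus. Its core is a barrel of outer rings of alpha subunits and inner rings of beta subunits, and 3 of the beta subunits cut the substrate. A regulatory particle caps the core. Its base holds a ring of ATPases that unfold the substrate and open the barrel, and its lid removes the ubiquitin chain. Other caps, the activators, open the core without ubiquitin, and interferon induces an alternative set of cutting subunits, the immunoproteasome, which favours peptides for class I antigen presentation. In early embryos the proteasome clears maternal proteins.

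Subunit genes share control by the bZIP factor encoded by *Nfe2l1*, which binds antioxidant response elements. The core of that element, TGACNNNGC, was searched on both strands of the RefSeq promoters of build GRCm38.p6, each 300 bases from 250 before to 50 after a gene's start. It was found in 12.4% of 32851 promoters. Among the members 35 genes had a promoter in the table and 6 of them, 17.1%, held the letters. They were *Psmb5*, *Psmb6*, *Psmc6*, *Psmd9*, *Psmd12* and *Psme4*. The stretches around the match are shown for the 4 genes in which it lies wholly before the start and well inside the window, with the matched letters in capitals, read on the gene's strand.
Psmb5, minus strand, chr14:54618014-54618062: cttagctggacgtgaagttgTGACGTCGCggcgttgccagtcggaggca
Psmb6, plus strand, chr11:70525328-70525356: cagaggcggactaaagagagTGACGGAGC
Psmc6, plus strand, chr14:45329577-45329625: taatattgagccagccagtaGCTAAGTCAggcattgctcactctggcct
Psmd9, plus strand, chr5:123228139-123228187: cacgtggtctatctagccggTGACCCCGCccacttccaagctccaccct
*Psmb5* and *Psmb6* encode cutting subunits of the core, *Psmc6* an ATPase of the base and *Psmd9* an assembly chaperone. The match began 47 bases before the start in *Psmb5*, 9 in *Psmb6*, 227 in *Psmc6* and 31 in *Psmd9*. The *Psmc6* match is on the opposite strand. Such a match is a description of letters and not a measured binding site. Of these 4 genes, as described below, *Psmc6* was higher in clones, a probe for *Psmd9* was lower, and *Psmb5* and *Psmb6* did not pass the test.

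Most proteasome probes were detected in every embryo. A spot counts as well above background by the scanner software's own mark, and 57 of the 64 probes (89.1%) carried it on every array, against 43.6% of all gene probes. These 57 probes cover 42 of the 43 genes, the exception being *Psmb8*. Signals are given as log2 of the normalized intensity with a floor of 16, which is 4 on this scale. The 57 probes had a median signal of 13.92 and ranged from 9.37 to 17.61, beside a median of 10.78 for the 17964 probes well above background on every array. Signals of different probes depend on the probe as well as on the transcript, so they are not ranked against each other here.

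The median embryo-to-embryo spread of the structural subunits was smaller than that of all detected probes and close to that of the brightest ones. Pooled over the 4 groups, the median SD within a group was 0.31 for the 57 probes, against 0.44 for all probes above background on every array and 0.29 for the 4491 brightest of these, whose level was at least 12.90. By role the median was 0.32 for the alpha ring, 0.27 for the beta ring, 0.28 for the base and 0.29 for the lid. *Psmb4*, a structural beta subunit, had the smallest SD, 0.13, and *Psmb9* the largest, 1.12. An SD smaller than that of *Psmb9* was found for 94.9% of all probes above background on every array. The dimmest of the 3 *Psmd7* probes (0.99) and *Psma8*, an alpha subunit known from testis (0.98), were next.

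**Figure D1:**
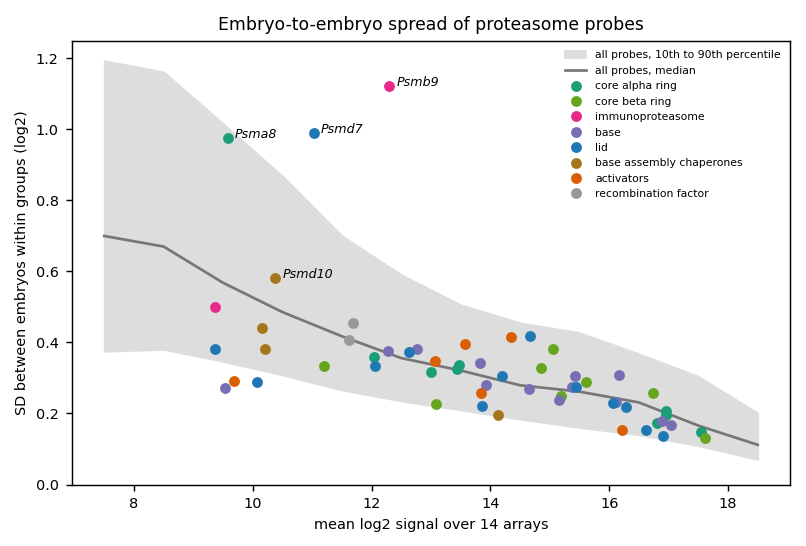
SD of the log2 signal between embryos, pooled within the 4 groups, against the mean log2 signal over 14 arrays, for the 57 proteasome probes well above background on every array (points, coloured by role), with the median and the 10th to 90th percentile of all such probes in bins of 1 log2 unit (grey). Most proteasome points lie inside the grey band, and the *Psmb9* point at an SD of 1.12 and the *Psmd7* point at 0.99 lie above it.

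The arrays of the clones and of the IVF-derived embryos differ in more than the embryos. Each group was hybridized on a slide of its own, and the clone arrays and the IVF arrays were read on different scanners with different versions of the software. In differences between clones and IVF-derived embryos, slide, scanner and software cannot be told apart from the group. Between fusion and injection clones, and between male and female controls, this holds for the slide, while the software version was shared. Between 57.4% and 65.2% of the gene spots of an array were well above background. All 14 arrays showed the blastocyst markers *Pou5f1*, *Nanog*, *Sox2*, *Cdx2*, *Krt8*, *Krt18*, *Gata3*, *Tfap2c*, *Gata6* and *Pdgfra* above background, and *Gata4* was above background on 11 arrays and *Sox17* on 12. Of the 6 cumulus cell markers, *Has2*, *Ptx3* and *Tnfaip6* were above background on 1 array each. Among them *Amhr2* was higher (1.63 ± 0.34 SE) and *Foxl2* lower (-0.77 ± 0.16 SE) in clones than in IVF-derived embryos, and *Cyp19a1*, above background on 11 arrays, did not pass. The summed signal of the list, on a linear scale, was 1029 to 2662 in fusion clones, 1618 to 2479 in injection clones, 412 to 948 in male and 702 to 908 in female controls, and its part in the results was not tested. Among lineage markers, *Nanog* was higher in clones (1.02 ± 0.28 SE) and *Cdx2* (-0.60 ± 0.14 SE), *Krt18* (-0.56 ± 0.12 SE) and *Gata4* (-2.72 ± 0.69 SE) were lower. The other lineage markers did not pass, and each lineage held both signs. For the epiblast, *Pou5f1* and *Sox2* gave -0.30 and 0.17. For the trophectoderm, *Krt8*, *Gata3* and *Tfap2c* gave -0.03, 0.13 and 0.30. For the primitive endoderm, *Gata6*, *Sox17* and *Pdgfra* gave 0.26, -3.70 and -0.999. The part of the makeup of the embryos was not tested either.

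In all clones against all IVF-derived embryos, the genes of the lid and base that passed the test were higher in clones on their brightest probe, and the activators and the assembly chaperone that passed were lower. The fit kept the 4 groups apart and contrasted the mean of the clone groups with the mean of the IVF groups (limma, Benjamini-Hochberg adjusted p below 0.05 over all 35010 probes tested). Of the 63 member probes tested, 16 were higher (25.4%) and 6 lower (9.52%) in clones, where 9.15% of all probes tested were higher and 13.1% lower. The remaining probe, a second one for *Psmd11*, was above background on no array and was not tested. The median member difference was 0.26 on the log2 scale, beside -0.06 over all probes tested. With each array scaled to its 75th percentile, 11 member probes were higher and 7 lower, beside 3125 and 4313 of all 35010 probes tested.

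The size of this shift depends on the scaling. On the log2 values deposited by the authors the median over all probes was 0.13 and that of the members 0.16, and 4963 probes were higher and 3893 lower, where the main scaling gave 3202 and 4583. Over probes above background on every array, in an alternative chosen after seeing the data, the members lay 0.37, 0.22, 0.33 and 0.22 above the median of all such probes with quantile, 75th percentile, normexp and deposited values. The methods name a moderated test at 5% with a 2-fold filter and do not say whether p was adjusted. It was applied here without adjustment. By it 2 member probes were higher and 1 lower, beside 8.32% of all probes higher and 7.69% lower. Most differences were below 2-fold, for 93.7% of the member probes tested and for 80.6% of all probes tested.

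Of the 43 genes, each read from its brightest probe, 11 were higher and 5 lower in clones, beside 9.15% and 13.1% of all probes tested. With probes averaged per gene, 10 of the 43 were higher and 3 lower, beside 2073 and 3122 of all 23908 genes tested. The clone and IVF values did not overlap for 5 genes, *Psmb2*, *Psmc1*, *Psmd7*, *Psmd14* and *Psme4*. Among all probes tested, 6.26% did not overlap.

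**Figure D2:**
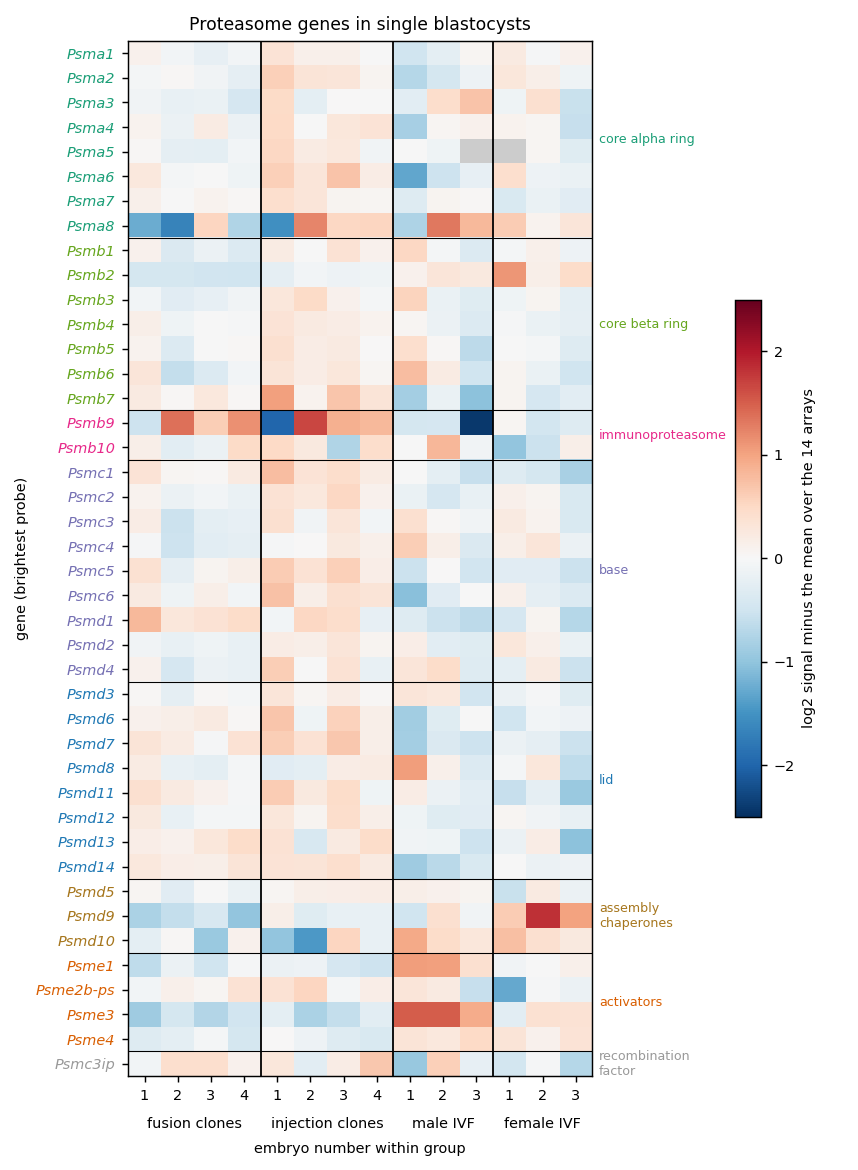
Log2 signal minus the mean over 14 arrays (colour, from -2.5 to 2.5) for the 42 genes with a probe well above background on every array (rows, brightest probe, grouped by role) in each embryo (columns, numbered within group); grey cells are the 2 missing values of *Psma5*. The lid genes *Psmd7* and *Psmd14* are above their mean in most clones, *Psme3* is highest in the 3 male IVF-derived embryos, and *Psmb9* and *Psma8* vary most within groups.

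The lid differed most evenly. Of its 14 probes, 13 were tested, 6 were higher and 1 lower in clones, and the median difference was 0.54. It was also positive in fusion clones (0.36) and injection clones (0.50) against female IVF-derived embryos. When each lid probe was centred on its mean over the 14 arrays, the median over the lid ranged from 0.03 to 0.24 in fusion clones and from 0.07 to 0.50 in injection clones. In the controls it ranged from -0.37 to -0.11 in males and from -0.34 to -0.08 in females, so that no clone overlapped with a control. On all 4 scalings the lid median was positive, between 0.47 and 0.55 over probes above background on every array.

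*Psmd14*, the deubiquitinase that removes the ubiquitin chain from the substrate, was higher in clones. Its signals were 17.17, 17.07, 17.06 and 17.22 in fusion clones and 17.24, 17.23, 17.32 and 17.13 in injection clones. They were 16.02, 16.23 and 16.53 in male and 16.90, 16.75 and 16.77 in female controls. All 8 clones lay above all 6 controls, and the male embryos were the lowest. The difference was 0.64 ± 0.09 (SE), 1.56-fold, with a limma adjusted p of 0.000971. A second probe gave 0.95 and did not overlap either. Against female embryos alone the difference was 0.32 in fusion and 0.42 in injection clones, with limma adjusted p of 0.214 and 0.108.

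*Psmd7*, the partner that holds *Psmd14* in place, had signals of 16.60, 16.50, 16.26 and 16.65 in fusion clones and 16.90, 16.65, 16.96 and 16.44 in injection clones. The male embryos had 15.44, 15.94 and 15.78 and the female embryos 16.15, 16.06 and 15.76. Again no clone reached down to a control. The difference was 0.77 ± 0.13 (SE), and the other 2 probes gave 0.95 and 1.22, the latter not past the test (limma adjusted p = 0.109). *Psmd11*, which clamps lid, base and core together, was higher by 0.56 ± 0.15 (SE), and *Psmd6*, a scaffold of the lid, by 0.54 ± 0.17 (SE). For *Psmd11* and *Psmd6* the clone and IVF ranges overlapped, and their calls were lost under 2 and 4 of 10 settings that kept all samples. With 1 of the 14 samples left out in turn, *Psmd6* was called 4 times. The other lid genes *Psmd3*, *Psmd8*, *Psmd12* and *Psmd13* lay between -0.12 and 0.50 and did not pass. A dimmer *Psmd12* probe was lower in clones (-0.46, a call lost under 4 of 10 settings), where the brightest gave 0.26 and the dimmest 0.26.

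In the base, 6 of 15 probes were higher in clones and none was lower, with a median of 0.37. By gene, 4 of 9 were higher. In this comparison the base median was positive on all 4 scalings, between 0.35 and 0.38 over probes above background on every array. Over the same probes against female embryos it was 0.03 in fusion clones with the quantile scaling, -0.01 with the 75th percentile, 0.16 with normexp and 0.02 with deposited values, whereas in injection clones it lay between 0.45 and 0.53.

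*Psmc1*, the ATPase that opens the gate of the core, had 16.46, 16.16, 16.14 and 16.34 in fusion clones and 16.89, 16.46, 16.56 and 16.32 in injection clones. The male embryos had 16.11, 15.87 and 15.54 and the female embryos 15.80, 15.67 and 15.31. The lowest clone was just above the highest male embryo. The difference was 0.70 ± 0.13 (SE), 1.62-fold, with a limma adjusted p of 0.00385. Against female embryos it was 0.68 in fusion and 0.96 in injection clones, with limma adjusted p of 0.0712 and 0.0575. *Psmd1*, the large scaffold of the base, was higher by 0.75 ± 0.17 (SE). The ATPases *Psmc5* and *Psmc6* were higher by 0.62 ± 0.13 (SE) and 0.52 ± 0.17 (SE). Both *Psmc5* probes passed, the dimmer one not under 5 of 10 settings. The second *Psmc6* probe, at 0.37, did not pass, and the brightest lost its call under 6 of 10 settings. With 1 of 14 samples left out, the brightest *Psmc6* probe was called 3 times and the dimmer *Psmc5* probe 4 times.

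The rest of the base did not pass on the brightest probe. The ATPases *Psmc2*, *Psmc3* and *Psmc4* gave 0.28, -0.08 and -0.21, and the ubiquitin receptor *Psmd4* 0.04. *Psmd2*, the second large scaffold, gave 0.04 on its brightest probe and 0.69 on a dimmer one that passed but lost its call when any 1 of 8 samples was left out. A second *Psmc2* probe was above background on 2 arrays only.

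**Figure D3:**
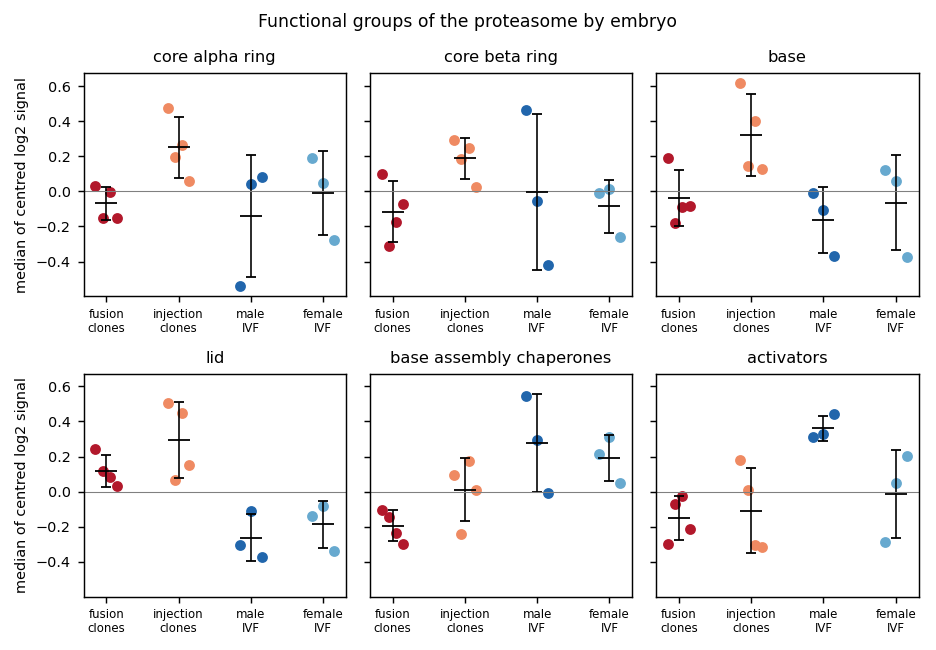
Median over the probes of each role of the log2 signal, centred per probe on the mean over 14 arrays, for single embryos (points), with the group mean and SD (bars; 4 clones each from fusion and injection, 3 IVF-derived controls of each sex). The lid values of all clones are above 0 and those of all IVF-derived embryos below 0, whereas the core rings of fusion clones and IVF-derived embryos overlap.

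Few core genes passed the test. In the alpha ring 2 of 9 probes were higher and none lower, and the median was 0.15. In the beta ring 1 of 8 was higher and 1 lower, with a median of 0.04 that turned negative with 75th percentile and deposited values, at -0.09 and -0.06. Against female embryos the alpha and beta medians were -0.01 and -0.02 in fusion clones, the beta median turning positive (0.03) with normexp. In injection clones they were 0.28 and 0.32, with 8 of 9 and 7 of 8 probes positive, beside -0.08 over all probes, and no probe passed. With 75th percentile scaling the injection medians were 0.20 for both rings. *Psma6* and *Psma7*, alpha subunits, were higher by 0.56 ± 0.18 (SE) and 0.31 ± 0.10 (SE). Their calls were lost under 6 and 5 of 10 settings and remained with 3 and 5 of the 14 samples left out, and *Psma7* gave 0.01 with 75th percentile scaling. The other alpha ring genes lay between -0.69 and 0.33.

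*Psma8* was the alpha subunit with the widest spread. It had 8.34, 7.91, 10.12 and 8.82 in fusion clones, 8.04, 10.79, 10.09 and 10.12 in injection clones. It had 8.80, 10.90 and 10.38 in male and 10.21, 9.65 and 9.89 in female controls. The female embryos were close together and every other group held both low and high embryos. Its difference, -0.69 ± 0.50 (SE), did not pass.

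Among the cutting subunits of the constitutive core, *Psmb7* was higher in clones, while *Psmb5* (0.17) and *Psmb6* (0.03) did not pass. *Psmb7* had 11.42, 11.23, 11.45 and 11.24 in fusion clones and 12.23, 11.28, 11.89 and 11.52 in injection clones. It had 10.36, 11.04 and 10.17 in male and 11.26, 10.77 and 10.92 in female embryos. The highest female embryo reached into the range of the fusion clones. The difference was 0.78 ± 0.18 (SE) with a limma adjusted p of 0.0101.

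*Psmb2*, a beta subunit without a cutting site, went the other way. It had 12.64, 12.65, 12.60 and 12.59 in fusion clones and 12.86, 13.02, 12.96 and 12.97 in injection clones. It had 13.20, 13.39 and 13.32 in male and 14.18, 13.22 and 13.54 in female embryos. The 4 groups lay in steps, with fusion clones lowest, then injection clones, then the controls, and the fusion clones did not overlap with the injection clones. The difference between all clones and all IVF-derived embryos was -0.69 ± 0.13 (SE), with a limma adjusted p of 0.00371. The step between fusion and injection clones, -0.33, did not pass (limma adjusted p = 0.540).

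**Figure D4:**
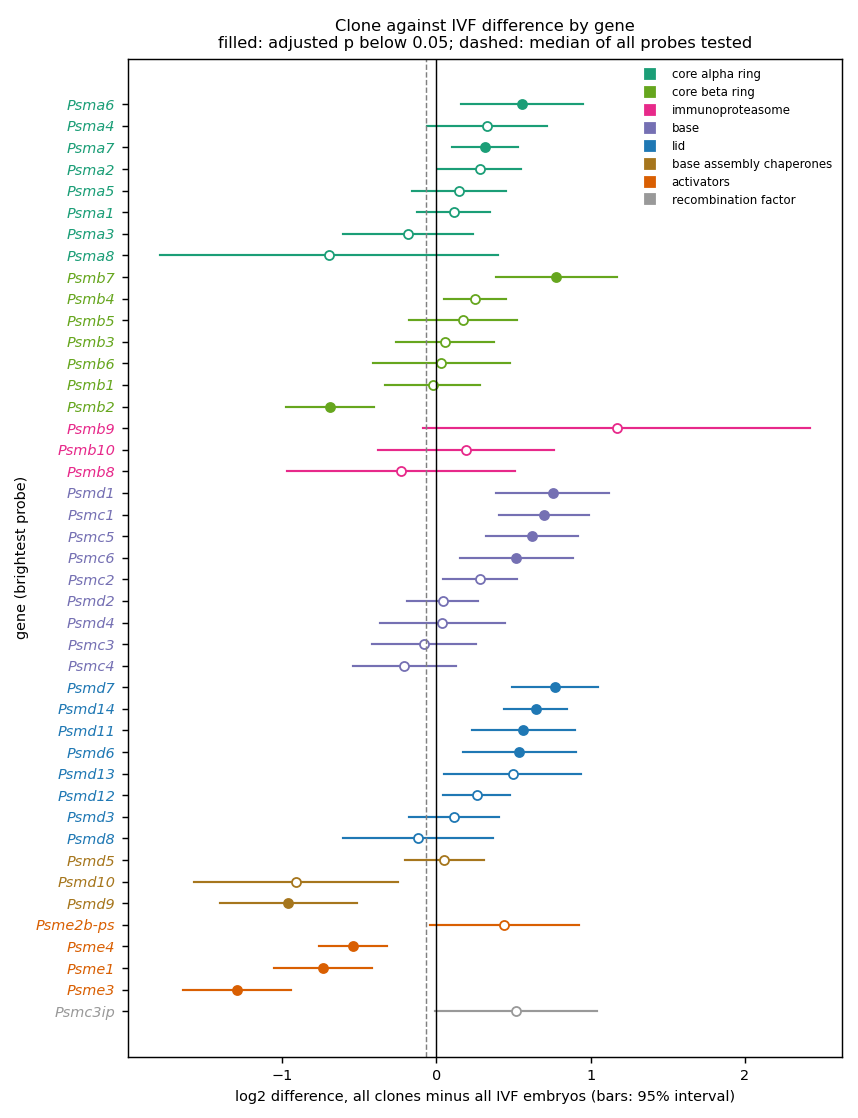
Log2 difference of all clones minus all IVF-derived embryos with its 95% interval for the 43 genes (brightest probe), ordered by role and size; filled points have a limma adjusted p below 0.05, and the dashed line is the median of all probes tested, -0.06. The filled points of the base and lid are all to the right of 0, and those of the activators and assembly chaperones to the left.

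The activators were lower in clones on the brightest probe for 3 of 4 genes. Over their 8 probes, 1 was higher, 3 were lower, and the median was 0.11. Over the 6 probes above background on every array it was -0.35, and between -0.44 and -0.29 on the 4 scalings. No activator passed between male and female embryos.

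*Psme3*, the nuclear activator, showed the largest fall of any member in all clones against all IVF-derived embryos. It had 8.81, 9.25, 8.95 and 9.20 in fusion clones and 9.44, 8.89, 9.09 and 9.43 in injection clones. The male embryos had 11.20, 11.20 and 10.61 and the female embryos 9.42, 10.07 and 10.05. All male embryos were above all other embryos, and the lowest female embryo was at the level of the highest injection clones. The difference was -1.29 ± 0.16 (SE), 2.45-fold, with a limma adjusted p of 0.000524. Against female embryos alone it was -0.79 in fusion clones (limma adjusted p = 0.0828) and -0.63 in injection clones (limma adjusted p = 0.187). Male embryos were 1.16 above female embryos (limma adjusted p = 0.514).

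*Psme1*, an interferon-inducible activator subunit, had 13.20, 13.69, 13.34 and 13.81 in fusion clones and 13.69, 13.71, 13.42 and 13.32 in injection clones. The male embryos had 14.89, 14.86 and 14.23 and the female embryos 13.76, 13.82 and 13.97. The male embryos stood above all others, while the lowest female embryo was below the highest clone. The difference was -0.73 ± 0.14 (SE), with a limma adjusted p of 0.00461, and against female embryos it was -0.34 in fusion and -0.31 in injection clones, with limma adjusted p of 0.347 and 0.293.

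*Psme4*, the large nuclear activator known for degrading acetylated histones, had similar levels in both sexes of the controls. Its brightest probe had 15.89, 15.97, 16.16 and 15.78 in fusion clones and 16.22, 16.08, 15.89 and 15.83 in injection clones. The controls had 16.53, 16.48 and 16.72 in males and 16.52, 16.32 and 16.54 in females. All clones lay below all controls. The difference was -0.54 ± 0.10 (SE), with a limma adjusted p of 0.00336. A second bright probe gave -0.16 and did not pass. A dim probe of the gene ran the opposite way, well above background in 6 of 8 clones and in none of the 6 controls. Its mean was 4.02-fold higher in clones (limma adjusted p = 0.0196) with values under 16 raised to 16, and that size depends on the floor. The remaining probe, above background on 12 arrays, gave 0.55 and did not pass.

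The partner of *Psme1* is encoded by *Psme2*. The array names 2 probes *Psme2b-ps*, and the files list for each of them 2 accessions that the RefSeq table gives to *Psme2*, and place them on chromosome 14, where that table has *Psme2* and not *Psme2b* (chromosome 11). Whether these probes read *Psme2*, *Psme2b* or both was not tested. They gave 0.44 ± 0.22 (SE) and 0.37 ± 0.21 (SE), with limma adjusted p of 0.182 and 0.244. The brighter one ranged from 14.26 to 14.88 in clones and from 13.06 to 14.64 in controls.

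Of the base assembly chaperones, *Psmd9* was lower in clones on its brightest probe. That probe had 9.41, 9.60, 9.81 and 9.21 in fusion clones and 10.34, 9.91, 10.02 and 10.02 in injection clones. It had 9.71, 10.60 and 10.12 in male and 10.84, 12.03 and 11.20 in female embryos. The female embryos were above all others, and the male embryos overlapped with both groups of clones. The difference was -0.96 ± 0.20 (SE), with a limma adjusted p of 0.00649. Its other probe gave 0.14 ± 0.23 (SE), so the direction rests on 1 of 2 probes.

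*Psmd10*, which is X-linked, gave -0.91 ± 0.30 (SE) with a limma adjusted p of 0.0502. It ranged from 9.44 to 10.49 in fusion clones, from 8.94 to 10.92 in injection clones, from 10.67 to 11.33 in male and from 10.63 to 11.14 in female embryos. The controls were tight and the clones spread downward from them. Without injection clone 3, the highest clone, the difference was -1.09 and passed (limma adjusted p = 0.0133), as it did under 5 of 10 settings that kept all samples. *Psmd5* gave 0.05 ± 0.12 (SE).

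**Figure D5:**
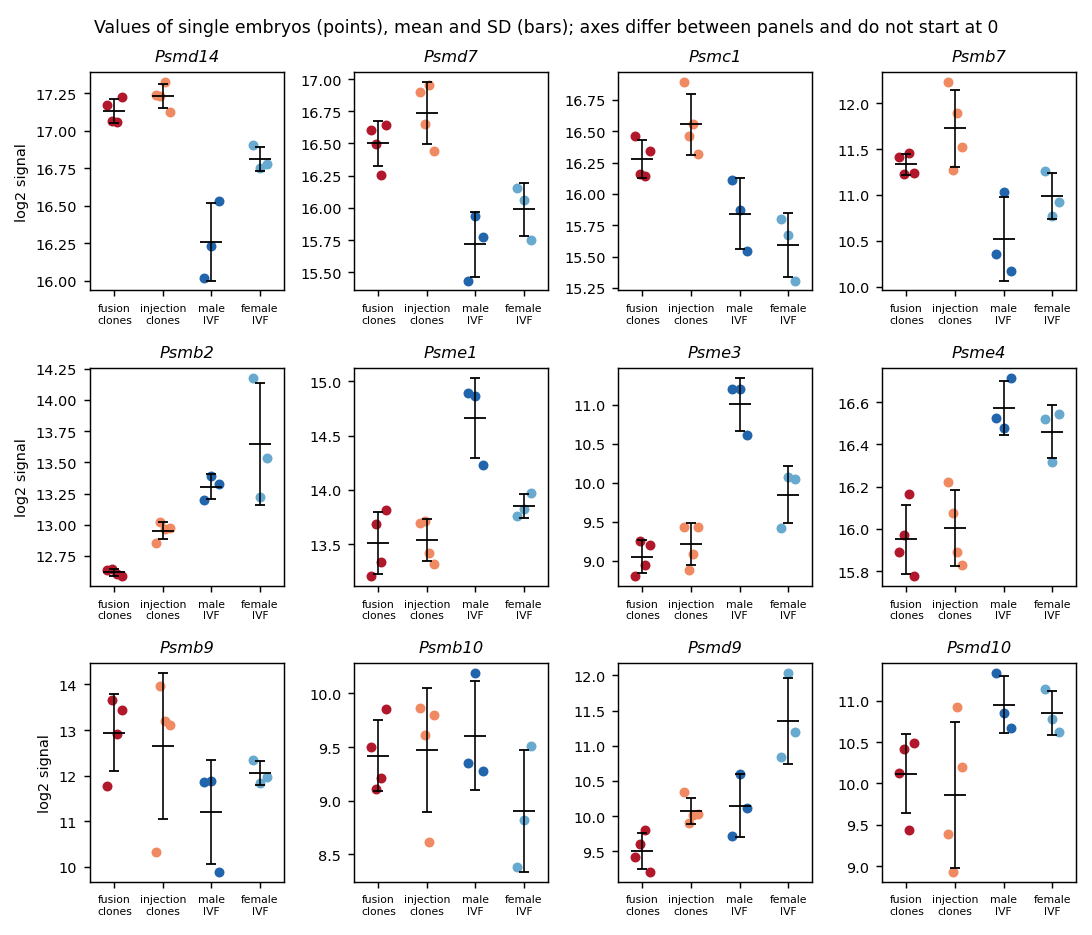
Log2 signal of single embryos (points; 4 clones each from fusion and injection, 3 IVF-derived controls of each sex), with the group mean and SD, for 12 genes read from the brightest probe; vertical axes differ between panels and do not start at 0. Clones are above controls for *Psmd14*, *Psmd7* and *Psmc1* and below them for *Psmb2* and *Psme4*, male embryos are highest for *Psme1* and *Psme3*, and *Psmb9* is low in injection clone 1 and male embryo 3.

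None of the immunoproteasome genes passed the test. Both probes for *Psmb8* were near the floor, well above background on 3 and 2 of the 14 arrays, so that no level can be compared between groups. *Psmb10* was above background on every array, with 8.62 to 9.86 in clones and 8.39 to 10.19 in controls, and gave 0.19 ± 0.26 (SE). *Psmb9* was bright and uneven.

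*Psmb9* had 11.77, 13.66, 12.90 and 13.44 in fusion clones and 10.32, 13.97, 13.19 and 13.11 in injection clones. It had 11.85, 11.88 and 9.89 in male and 12.34, 11.83 and 11.97 in female embryos. In clones 6 of 8 embryos were above every control, and the 2 others, fusion clone 1 and injection clone 1, were below the highest control. The difference was 1.17 ± 0.57 (SE) with a limma adjusted p of 0.175. Without injection clone 1 it was 1.56 and passed (limma adjusted p = 0.0230), and over all alternatives the adjusted p lay between 0.0230 and 0.341. Of the 4 leukocyte markers, *Ptprc* was above background on 1 array, *Laptm5* on 5, *Cd52* on 11 and *Cd3e* on 14. Their summed linear signal was 135 to 338 in fusion clones, 121 to 402 in injection clones, 127 to 228 in male and 137 to 378 in female controls, and their part in the *Psmb9* values was not tested.

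The genes that act with the immunoproteasome in class I antigen presentation were not uniform either. Of 9 measured genes on a list fixed for this purpose, 2 were higher and none lower in clones, beside 9.15% and 13.1% of all probes tested. *Tap1*, the peptide transporter subunit whose gene lies beside *Psmb9*, averaged 8.23 in fusion clones, 8.16 in injection clones, 4.95 in male and 7.23 in female embryos. It was higher in clones with a limma adjusted p of 0.000421, but not against female embryos alone, with limma adjusted p of 0.167 in fusion and 0.135 in injection clones. *Tapbp*, which loads peptides, was higher by 0.90 ± 0.27 (SE). *B2m* gave 0.41, *H2-K1* -0.16, *H2-D1* -0.07 and *Irf1* -0.18, and none of these passed.

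In fusion clones against female IVF-derived embryos, the sex-matched comparison, 1 of 62 member probes passed. It was *Psmd9*, lower by -1.85 ± 0.32 (SE), with a limma adjusted p of 0.0230, whereas 4.32% of all probes tested were higher and 5.17% lower. The median member difference was 0.07, beside -0.12 over all probes tested. At an unadjusted p below 0.05, 16 members passed (25.8%), and so did 27.2% of all probes. Leaving out any 1 fusion clone, or female embryo 3, took *Psmd9* above the threshold, with limma adjusted p up to 0.0643.

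In injection clones against female IVF-derived embryos, none of 62 member probes passed in limma, while 1.53% of all probes were higher and 2.14% lower. At an unadjusted p below 0.05, 16 members passed (25.8%, against 23.2% of all probes). The median member difference was 0.38, beside -0.08 over all probes tested, and 50 of the 62 were positive.

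With all 4 groups in one fit, which shares the spread between them, 6 of 62 member probes (9.68%) passed in fusion clones, where 12.9% of all probes did, and 8 of 62 (12.9%) in injection clones, where 9.43% of all probes did. *Psmc1*, *Psmb2* and the brightest *Psmd9* probe passed in both, in the directions given above. The comparisons of the clone groups with IVF-derived embryos share the same controls. By the criterion of the methods, 1 member was higher and 2 lower in fusion clones than in female embryos, beside 8.46% and 8.59% of all probes. In injection clones 1 was higher and 1 lower, beside 6.93% and 7.08%.

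Fusion and injection clones were compared to see whether the method of nuclear transfer mattered. No member probe of 63 passed in limma, and no probe at all (0.0% higher and 0.0% lower). The median member difference was nevertheless -0.26, beside -0.01 over all probes tested. It was positive for 11 of the 63 probes, with none of the 9 of the alpha ring and none of the 8 of the beta ring among them, and 14 (22.2%) had an unadjusted p below 0.05, against 6.17% of all probes. The lowest limma adjusted p among the members was 0.540, for *Psmb2*. The base had a median of -0.34, the lid -0.20 and the activators -0.12. Across the settings that kept all samples the member median lay between -0.29 and -0.21. By the criterion of the methods no member passed, and 1.27% of all probes were higher and 1.11% lower.

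Single embryos differed from their group across many members at once. In injection clone 1, 46 of the 57 probes above background on every array were above the group mean, with a median deviation of 0.19, and in fusion clone 1 it was 44 with 0.10. The lowest deviations were those of male embryo 3 and female embryo 3, at -0.18 and -0.19. Leaving out any 1 sample kept the difference between fusion and injection clones negative, between -0.31 and -0.19.

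None of 61 member probes passed between male and female IVF-derived embryos (limma), beside 0.0281% of all probes higher and 0.0312% lower in males. With embryos of the same number as pairs, no probe passed, member or other, where 19 passed without the pairing. At an unadjusted p below 0.05 the members were *Psme3* (1.16), *Psme1* (0.81) and *Psmd9* (-1.21). By the criterion of the methods 1 member was higher and 1 lower, beside 2.97% and 2.81% of all probes. The median member difference was 0.09, beside -0.03 over all probes.

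Other genes of the pathway were read from a fixed list of 34 measured genes, all above background on every array. In all clones against all IVF-derived embryos 9 of 33 tested were higher and 1 lower, with a median of 0.13. Of all probes tested, 9.15% were higher and 13.1% lower. The core assembly factor *Psmg3* was higher by 0.95 ± 0.21 (SE), but *Pomp*, *Psmg1* and *Psmg2* gave -0.08, -0.19 and -0.03 and did not pass. Of the enzymes that dock on the lid and base, the deubiquitinase *Usp14* was higher by 1.09 ± 0.19 (SE) and the ubiquitin ligase *Ube3c* by 0.68 ± 0.10 (SE). *Vcp*, the ATPase that extracts ubiquitinated proteins, and its cofactor *Ufd1l* were higher by 0.73 ± 0.14 (SE) and 0.76 ± 0.12 (SE), and the shuttle *Rad23b* by 0.58 ± 0.16 (SE).

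The ubiquitin genes *Ubb* and *Rps27a* gave -0.21 and 0.16 and did not pass. Among regulators, *Nfe2l2*, the small partner *Maff* and the nuclear import factor *Akirin2* were higher, by 0.81 ± 0.21 (SE), 1.23 ± 0.30 (SE) and 0.70 ± 0.17 (SE). *Nfe2l1* itself gave -0.35 ± 0.15 (SE) and did not pass. The inhibitor *Psmf1* gave -0.48 ± 0.16 (SE) with a limma adjusted p of 0.0533. Against female embryos alone, 2 of 33 genes of the list were higher and 1 lower in fusion clones, beside 4.32% and 5.17% of all probes. In injection clones 0 of 33 were higher and 0 lower, beside 1.53% and 2.14%. Of the genes of this list named above as higher, only *Psmg3* passed against female embryos, in fusion clones (limma adjusted p = 0.0381).

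*Psmc3ip* carries a proteasome name but encodes a meiotic recombination factor. In all clones against all IVF-derived embryos its 2 probes gave 0.52 ± 0.24 (SE) and 0.46 ± 0.22 (SE) and did not pass.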

How the data were processed

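The authors deposited, for each of 14 arrays, the scanner output of Agilent Feature Extraction, with processed intensity per spot on a linear scale (background subtracted, not normalized between arrays) and marks for outlying or detected spots. A second deposited table holds their log2 values for these arrays. No column was left without a sample (0). The submitters' notes name Feature Extraction 10.5.1, while the file headers give 10.5.1.1 for clones and 9.5.3.1 for IVF-derived embryos. On each clone array 0 of the 43379 gene spots had a processed intensity below 0. On the IVF arrays 6790 to 9981 did, so low signals were not on the same footing in clones and controls. The part of this in the differences of dim probes was not tested.

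From 43379 gene spots (1639 control spots left out, 101 to 338 outlier spots per array set to missing) intensities were quantile-normalized. Values under 16 were raised to 16, log2 was taken, and spots of a probe were averaged. The paper's methods name the same normalization and moderated tests. Probes detected above background on 1 or more arrays of a comparison were tested with lmFit and eBayes (limma 3.58.1, R 4.3.3) and Benjamini-Hochberg adjustment over all probes. The code was tested on simulated data. Two-sided tests were used throughout. A gene is read from its brightest probe. Alternatives were other scalings (75th percentile, normexp with an offset of 50, deposited log2), floors of 1 and 32, other filters, probes averaged per gene, other fits, the replicate number as a block and leaving out each sample. The number of arrays limits the precision. Figures used matplotlib 3.10.9 in Python 3.11.15.

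The members, gene lists and tests were chosen with earlier results of these data known. Every immunoproteasome, activator and chaperone gene is named, and in the core, base and lid up to 4 rises and 4 falls among genes with an adjusted p below 0.05. The deviations of same-numbered male and female embryos had correlations of 0.15, 0.17 and 0.17 over 17478 probes, so that comparison is also given in pairs. Differently numbered embryos were not compared in this way. The labels give 1 embryo per sample but no litters, so p-values measure the spread between these samples. The highest correlation between samples was 0.978 and no 2 files were identical. Promoter sequences and gene matches come from RefSeq on GRCm38.p6 (54 probes by accession, 8 by symbol, 2 by an older symbol). Protein sequences were not used here. Some genes of the fixed lists are counted but not reported here by name.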

Additional observations from a re-analysis of the deposited data

How the results depend on the processing

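Of the 22 member probes called in all clones against all IVF-derived embryos, 13 were called under all 10 settings that kept all samples and with each sample left out in turn. The dim *Psme4* probe was too, but could be tested under 9 of the 10. Averaging probes per gene gave 13 called genes, and the methods' threshold 3 probes. Leaving out 1 sample gave 14 to 20, the lowest without female embryo 3. The member median minus the median of all probes was 0.32 as reported, 0.034 with the deposited log2 values, and 0.22 with the same values over probes above background on every array, an alternative chosen after seeing the data.

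In fusion clones against female embryos, the 1 member called became 3 with 75th percentile scaling, 3 with normexp, 6 with a floor of 32, 3 without a filter, 2 with probes above background on every array, 6 with all groups in one fit, 4 with a variance trend, 3 by the methods' threshold and 0 to 2 with 1 sample left out. Of all 32458 probes, 1479 were higher and 1411 lower with 75th percentile scaling, and 1661 and 1686 with normexp. The counts were 1285 and 1851 with a floor of 32, and 1592 and 1710 with a variance trend. In one fit they were 1854 and 2335 of 32444. Without a filter they were 1049 and 1539 of 41156, and 1152 and 1791 of 18672 probes above background on every array. The member median minus that of all probes was -0.028 with deposited values. In injection clones against female embryos, 0 became 2 with normexp, 2 with a floor of 32, 1 without a filter, 8 with all groups in one fit, 2 with a variance trend and 2 by the methods' threshold. Of all 32840 probes, 672 were higher and 831 lower with normexp, 425 and 672 with a floor of 32, and 554 and 746 with a variance trend. The counts were 296 and 478 of 41156 without a filter, and 1361 and 1736 of 32826 in one fit. In male against female embryos the member count became 2 by the methods' threshold. The causes were not tested.

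With the replicate number as a block, the count was 0 in fusion and 0 in injection clones against female embryos, 0 between clone groups, and 17 in all clones against all IVF-derived embryos. In the last, 2760 of all 35010 probes were higher and 3936 lower. Where the count was 0, no other probe passed either. Apart from the IVF pairs, the deviations of same-numbered samples had correlations from -0.12 to 0.17, the highest between fusion clone 3 and injection clone 3. Whether same-numbered samples share more than a number was not tested. No member gene among the clone groups had a sample set apart from the other 3 by the test for outliers in groups of 4, in 84 groups tested, where about 4.2 are expected by chance. Signal near background limits *Psmb8* and the dim *Psme4* probe.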
